A study of Mus musculus with 5 samples.

Results

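The mesenchymal transition genes are 10 genes that mark or drive the epithelial to mesenchymal transition, chosen by name: Cdh2, Vim, Zeb1, Zeb2, Snai1, Snai2, Twist1, Tgfb1, Tgfbi and Prrx1. All 10 were present among the 38918 features of the deposited expression table. They were measured in 5 tumours of the mammary gland from FVB mice with an SV40 transgene, taken at 20 weeks of age and profiled by mRNA sequencing of total RNA. Of these tumours, 3 came from offspring of dams that ate a diet with 26% broccoli sprouts (BSp) between conception and weaning, called maternal BSp here, and 2 came from offspring of dams on a control diet over the same time. The offspring of both groups received no treatment of their own, and the SV40 transgene was shared by both groups. The labels do not say which promoter drives the transgene, and they do not state whether the libraries of a group come from separate animals, so the spread behind each p-value is that of these libraries and may be technical.

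In the epithelial to mesenchymal transition, carcinoma cells loosen their cell to cell junctions, give up E-cadherin and take on the intermediate filament vimentin and the cadherin N-cadherin. Transcription factors of the ZEB, SNAIL and TWIST families and PRRX1 drive it, in part by binding E-box motifs in epithelial genes and repressing them, and transforming growth factor beta (TGF-beta) is a well known inducer. In a whole tumour the same genes are also transcribed by fibroblasts, vessel-associated cells and leukocytes, so a bulk value does not tell tumour cells from stroma. Fewer cells of a type and less RNA per cell cannot be told apart in such data.

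The promoters of 4 members are shown first, chosen by value or motif. Twist1 was high in 1 library, and the groups of Tgfbi and Prrx1 did not overlap. Snai1 was chosen only for its E-box. The sequences are from RefSeq on GRCm38.p6 and run from 250 bases before to 50 bases after the annotated start, 5′ to 3′ along the gene. Promoters of 7 of the 10 members were read from the RefSeq promoter table. Those of Cdh2 and Zeb1 were not read, which does not mean that the table lacks them. For Snai2 none was found by its symbol. Capitals mark 3 short motifs on either strand: CAGAC (or GTCTG), the short form of the SMAD-binding element, in Twist1, Tgfbi and Prrx1; TATAAA (or TTTATA) in Twist1; and CACCTG (or CAGGTG), the E-box read by SNAIL and ZEB factors, in Snai1.
Twist1, chr12:33957421-33957720, plus strand: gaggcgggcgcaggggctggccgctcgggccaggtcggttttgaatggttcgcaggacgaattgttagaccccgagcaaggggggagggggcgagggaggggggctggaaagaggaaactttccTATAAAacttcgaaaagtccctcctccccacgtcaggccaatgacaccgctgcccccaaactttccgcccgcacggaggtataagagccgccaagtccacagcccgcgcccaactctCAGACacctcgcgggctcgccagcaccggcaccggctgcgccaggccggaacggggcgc
Tgfbi, chr13:56609336-56609635, plus strand: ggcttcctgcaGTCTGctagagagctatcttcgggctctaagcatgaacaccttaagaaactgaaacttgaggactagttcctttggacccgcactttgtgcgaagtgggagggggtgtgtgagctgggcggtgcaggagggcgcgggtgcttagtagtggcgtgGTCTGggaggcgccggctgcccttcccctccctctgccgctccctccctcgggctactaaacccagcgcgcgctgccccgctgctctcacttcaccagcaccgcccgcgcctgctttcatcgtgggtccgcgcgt
Prrx1, chr1:163313601-163313900, minus strand: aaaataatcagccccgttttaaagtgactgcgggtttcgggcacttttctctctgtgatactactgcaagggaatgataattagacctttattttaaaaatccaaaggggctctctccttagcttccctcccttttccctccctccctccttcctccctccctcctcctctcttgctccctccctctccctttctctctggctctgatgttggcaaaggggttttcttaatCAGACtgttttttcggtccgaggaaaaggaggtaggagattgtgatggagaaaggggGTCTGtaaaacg
Snai1, chr2:167537945-167538244, plus strand: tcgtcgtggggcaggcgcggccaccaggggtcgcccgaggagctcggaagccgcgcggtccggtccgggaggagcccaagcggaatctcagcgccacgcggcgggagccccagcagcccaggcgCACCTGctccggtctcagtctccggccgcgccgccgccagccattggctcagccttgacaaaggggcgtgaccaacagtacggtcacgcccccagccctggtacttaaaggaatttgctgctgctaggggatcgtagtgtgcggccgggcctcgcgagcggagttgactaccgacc
Counted from 0 at the annotated start, CAGAC stood at -9 and TATAAA at -126 in Twist1, CAGAC or its reverse complement at -239 and -85 in Tgfbi and at -19 and 38 in Prrx1, and CACCTG at -126 in Snai1. CAGAC occurred in 49.6% of the 32851 promoters of the same table, CACCTG in 20.2% and TATAAA in 13.6%. Of the promoters read but not shown, those of Vim, Zeb2 and Tgfb1 held no CAGAC or CACCTG, and Vim held TATAAA at -32. Snai1 held no CAGAC either. A match is a description of the letters and not of a bound site.

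Values below are the authors' normalised reads per gene, scaled by them to 1 common total per library. Recovered depth was 8459029, 61663199 and 13796272 reads in maternal BSp libraries 1, 2 and 3, against 1106813 and 3909583 reads in control libraries 1 and 2, so each control had fewer reads than any maternal BSp library. With 3 reads taken as the limit of detection, that limit was between 0.0538 and 0.393 in maternal BSp libraries, against 3 and 0.849 in control libraries 1 and 2. Control library 1 was numbered 2, and control library 2 was numbered 3, in another label. Libraries 1 of each group stood apart in holding transcripts of the salivary gland, and maternal BSp library 3 in holding high levels of genes near one end of chromosome 6; values for both are given where they meet a member.

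None of the 10 members passed the test for a difference between maternal BSp and control tumours. Of the members, 8 had a mean of 10 or more and entered the limma test on log2(value + 1), and 0 of these 8 had a Benjamini-Hochberg adjusted p below 0.05, as was the case for 0% of the 9870 genes tested. At an unadjusted p below 0.05, 0 of the 8 were counted, beside 8.01% of all genes higher and 3.14% lower in maternal BSp. Zeb1 and Prrx1 had means of 5.14 and 9.08, below that minimum, and were read from a fit with the minimum at 1. Twist1 passed the minimum only through maternal BSp library 3. Of the 10 log2 fold changes 6 were above 0 and 4 below 0, so the members did not share a direction. For the 8 tested members the median was 0.06, with 4 higher and 4 lower, beside 0.21 for all genes tested, of which 6235 were higher and 3635 lower in maternal BSp. With upper-quartile scaling the members' median was -0.15, with 3 higher and 5 lower, beside -0.01 for all genes, with 4837 higher and 5033 lower.

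With edgeR and DESeq2 on the recovered reads, 0 members passed an adjusted p of 0.05, beside 0% of all genes by edgeR and 0.883% by DESeq2. At an unadjusted p below 0.05 both tools counted Cdh2 and Tgfbi, of 8 members with a p by edgeR and 7 by DESeq2. Beside them stood 9.84% of all genes by edgeR and 11.8% by DESeq2. Prrx1, from the fit with the minimum at 1, had an unadjusted p of 0.0324 by edgeR and 0.0233 by DESeq2. By limma with upper-quartile, median-of-ratios and quantile scaling, Cdh2 and Tgfbi were also below 0.05 unadjusted. So were 1058, 1053 and 992 of all 9870 genes in those settings.

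**Figure D1:**
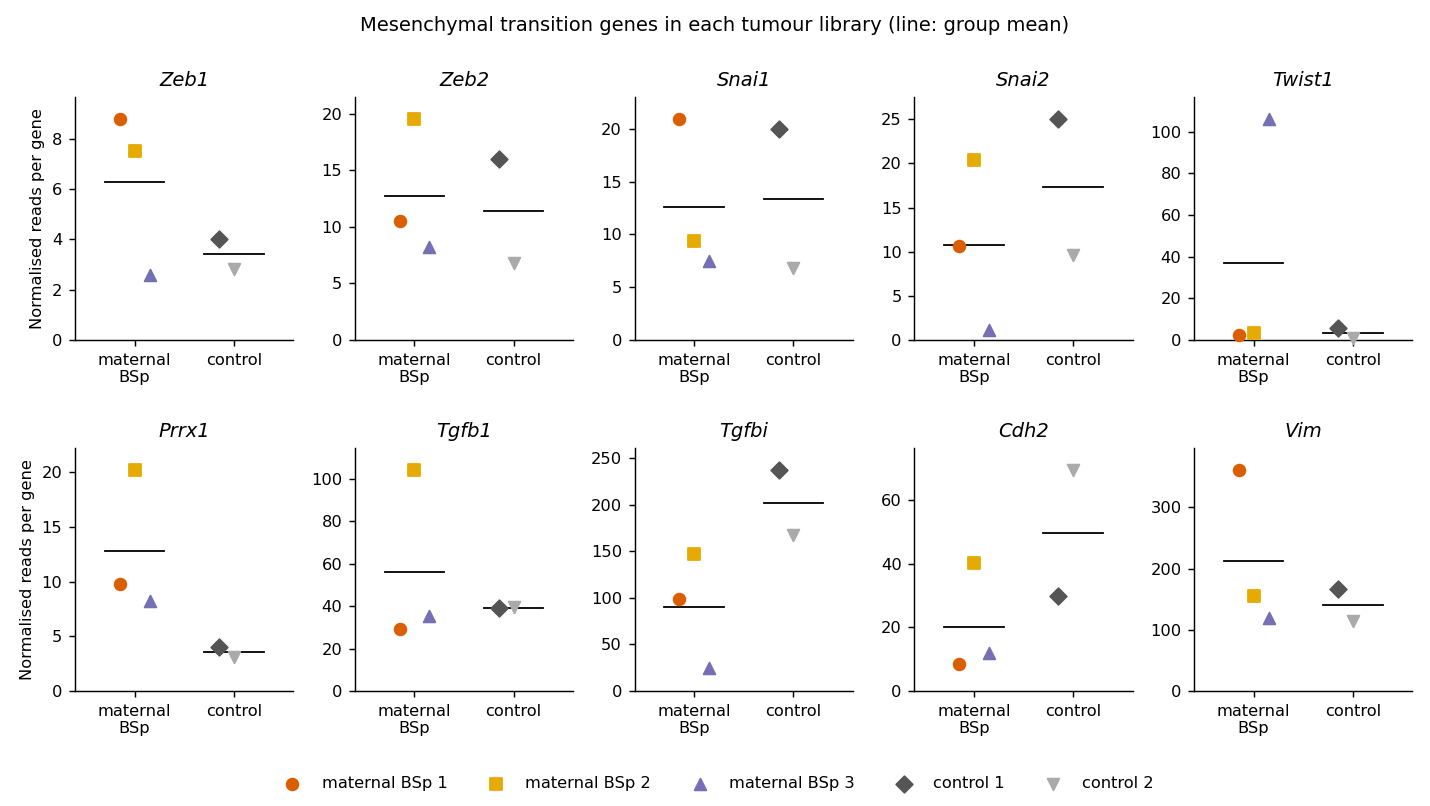
Normalised reads per gene (vertical axis, starting at 0) of the 10 members in each library, with the 3 maternal BSp libraries left of the 2 control libraries and a line at each group mean. Prrx1 was higher in every maternal BSp library than in both controls, Tgfbi was lower, and the groups of the other 8 members overlapped. Of 13524 genes with a mean of at least 1, 22.6% were higher and 9.39% lower in this way.

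Levels between genes were compared per kilobase of annotated exon. By the median over the 5 libraries the order was Tgfbi at 38.9, Vim at 33, Tgfb1 at 7.74, Snai1 at 5.78, Snai2 at 5.31, Cdh2 at 3.72, Twist1 at 2.04, Prrx1 at 0.747, Zeb2 at 0.525 and Zeb1 at 0.39 normalised reads per kilobase. Vim, at 24 to 76.1 per kilobase over the 5 libraries, and Tgfb1, at 5.79 to 20.6, did not overlap. The ranges of all other neighbours in that order did: Tgfbi spanned 6.47 to 62.8 per kilobase, Zeb2 0.341 to 0.979 and Zeb1 0.25 to 0.854. The secreted matrix protein gene Tgfbi and the filament gene Vim thus led, and the factors Prrx1, Zeb1 and Zeb2 were at the low end. Their annotated exons span 11066, 10266 and 19942 bases, against 1621 for Snai1. In control libraries 1 and 2, Prrx1 rests on 4 and 11 reads, Zeb1 on 4 and 10, and Zeb2 on 16 and 24. Snai1, higher per kilobase, rests on 20 and 24 there.

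The epithelial side was abundant in every library. Cdh1, the gene of E-cadherin, was at 127 to 208 normalised reads per kilobase over the 5 libraries, and Epcam, an epithelial surface protein, at 800 to 1090. Cdh2 per kilobase was 0.68%, 2.39% and 1.19% of Cdh1 in maternal BSp libraries 1 to 3, against 1.91% and 5% in the controls. E-cadherin transcripts thus outnumbered N-cadherin transcripts in all 5 tumours, whichever the diet. Vim per kilobase was 6.98%, 3.71% and 2.4% of Epcam in maternal BSp libraries, against 4.4% and 2.59% in the controls.

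Cdh2 and Vim are the structural hallmarks. Cdh2 encodes N-cadherin and lies on chromosome 18. It had 8.5, 40.1 and 12.1 normalised reads in maternal BSp libraries 1, 2 and 3, against 30 and 69.4 in controls 1 and 2. Maternal BSp libraries 1 and 3 were below both controls, and library 2 lay between them. The means were 20.2 ± 17.3 in maternal BSp and 49.7 ± 27.8 in control (SD, n = 3 and 2). The log2 fold change was -1.44 (SE 0.67), with an adjusted p of 0.457 by limma, and -0.85 without control library 2. With limma array weights it was -2.05 with an adjusted p of 0.0401, the 1 setting in which a member was called, beside 2.81% of all genes called lower there. Those weights were 2.97, 0.337 and 0.456 for maternal BSp libraries 1, 2 and 3, and 1.48 for each control. The most weight thus lay on maternal BSp library 1, which held the least Cdh2.

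Vim (chr2:13573927-13582826, plus strand, GRCm38) encodes vimentin. It had 361, 156 and 119 normalised reads in maternal BSp, against 167 and 114 in control. Maternal BSp library 1 was high, and the other 4 libraries lay within one range. The log2 fold change was 0.45 (SE 0.50, adjusted p = 0.737 by limma), and -0.01 without maternal BSp library 1. Vim and Cdh2 did not share a pattern: maternal BSp library 1 held the most Vim and the least Cdh2.

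Zeb1 and Zeb2 are zinc-finger homeobox repressors of Cdh1. Zeb1 had 8.77, 7.52 and 2.57 normalised reads in maternal BSp, against 4 and 2.83 in control. These values rest on 67, 419 and 32 reads in maternal BSp, against 4 and 10 in control, and the 95% Poisson interval of control library 1, from 1.09 to 10.2, contains every other library's value. The log2 fold change was 0.61 (SE 0.62, adjusted p = 0.711 by limma at a mean of at least 1). The interval of control library 2, from 1.36 to 5.21, lies below those of maternal BSp libraries 1 and 2, which start at 6.79 and 6.82, and overlaps that of maternal BSp library 3.

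Zeb2 (chr2:44983632-45117395, minus strand) had 10.5, 19.5 and 8.18 normalised reads in maternal BSp, against 16 and 6.79 in control. The groups overlapped, with 1 high library in each. The log2 fold change was 0.17 (SE 0.63, adjusted p = 0.932 by limma), and it turned to -0.05 with upper-quartile scaling, -0.01 with quantile normalisation, -0.39 without control library 2 and -0.17 without maternal BSp library 2, so no direction is given.

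Snai1 and Snai2 encode SNAIL and SLUG, zinc-finger repressors that bind E-boxes. Snai1 (chr2:167538195-167542814, plus strand) had 20.9, 9.37 and 7.46 normalised reads in maternal BSp, against 20 and 6.79 in control. It was high in maternal BSp library 1 and control library 1, near 20 in both, and below 10 in the other 3 libraries. Its log2 fold change was -0.04 (SE 0.68, adjusted p = 0.987 by limma). It was 0.67 without control library 1 and -0.76 without control library 2. The same 2 libraries held salivary gland transcripts, 10 genes chosen after their values were seen, which summed to 2451, 8.97 and 14.6 normalised reads in maternal BSp, against 698 and 0.283 in control. Of these genes Smr2 and Muc19 were at 0 in both of those libraries. Their part in the Snai1 values was not tested. With both of those libraries left out, the Snai1 log2 fold change was 0.27.

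Snai2 (chr16:14705852-14709385, plus strand) had 10.7, 20.4 and 1.2 normalised reads in maternal BSp, against 25 and 9.63 in control. Maternal BSp library 3 was low, and the other 2 maternal BSp libraries lay between the controls. On the log2 scale the fold change was -1.02 (SE 0.99, adjusted p = 0.693 by limma), and -0.07 without maternal BSp library 3. Both Snai1 and Snai2 were high in control library 1, at 20 and 25. Its 95% Poisson intervals, 12.2 to 30.9 and 16.2 to 36.9, take in the highest maternal BSp values, 20.9 and 20.4. Which library came first was thus not resolved for either gene. Among maternal BSp libraries the genes differed. For Snai1, library 1 (17.8 to 24.4) was above library 2 (8.58 to 10.2). For Snai2, library 2 (19.2 to 21.6) was above library 1 (8.53 to 13.3).

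Twist1 (chr12:33957671-33959829, plus strand) encodes a basic helix-loop-helix factor of the mesoderm that represses Cdh1 in carcinoma. It had 2.49, 3.32 and 106 normalised reads in maternal BSp, against 6 and 1.13 in control. Maternal BSp library 3 stood alone, 17.6-fold above the next library, and the other 4 libraries were at or below 6. The count behind it was 1319 reads, with a 95% Poisson interval of 100 to 112 on the normalised scale, while the highest upper bound of the other libraries was 13.1, in control library 1. In control library 2 the value rests on 4 reads. In the fit the log2 fold change was 1.6 (SE 1.49, adjusted p = 0.68 by limma), and 0.01 without maternal BSp library 3. On the recovered reads the log2 fold change was 3.65 by edgeR (adjusted p = 0.566) and 3.34 by DESeq2, which gave no p for Twist1.

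By the ratio of maternal BSp library 3 to the next highest library, Twist1 ranked 16 of 9351 genes. No protein-coding gene within 1 Mb of Twist1 stood apart in that library to a like extent, and Ferd3l, the nearest on one side, was at 0 in all 5 libraries. Twistnb had 27.5, 20.5 and 39.5 normalised reads in maternal BSp, against 13 and 14.4 in control. Hdac9, the nearest on the other side, had 0.654, 1.81 and 2.25 in maternal BSp, against 0 and 0.849 in control. The Twist1 excess in maternal BSp library 3 was not accompanied by Snai2 or Zeb1, which had their lowest values in that library. Twist2, the paralogue of Twist1, had 3.01, 2.69 and 0.963 normalised reads in maternal BSp, against 4 and 0.566 in control.

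Prrx1 (chr1:163245119-163313710, minus strand) encodes a paired-type homeobox factor of mesenchyme. It had 9.81, 20.2 and 8.26 normalised reads in maternal BSp, against 4 and 3.11 in control, or 12.8 ± 6.5 on average in maternal BSp and 3.56 ± 0.626 in control (SD, n = 3 and 2). Every maternal BSp library was above both controls, as in 22.6% of 13524 genes whose mean was at least 1. The controls rest on 4 and 11 reads, against 75, 1126 and 103 reads in maternal BSp. The 95% Poisson interval of control library 1 reached 10.2, above the values of maternal BSp libraries 1 and 3. That of control library 2, from 1.55 to 5.57, lies below every maternal BSp interval, the lowest of which starts at 6.74 in library 3. The Prrx1 log2 fold change was 1.5 (SE 0.56, unadjusted p = 0.0259, adjusted p = 0.435 by limma at a mean of at least 1), where 10.8% of all genes had an unadjusted p below 0.05. It ranged between 1.14 and 1.74 when each library was left out.

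Tgfb1 and Tgfbi are a ligand and a gene named for its induction by it. Tgfb1 (chr7:25687002-25705077, plus strand) had 29.2, 104 and 35.3 normalised reads in maternal BSp, against 39 and 39.4 in control. Maternal BSp library 2 was 2.64-fold above the next library, and the other 2 maternal BSp libraries were below both controls. On the log2 scale the fold change was 0.27 (SE 0.54, adjusted p = 0.86 by limma), and -0.28 without maternal BSp library 2.

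Tgfbi (chr13:56609523-56639562, plus strand) encodes a secreted matrix protein that binds integrins and collagen. It had 98.9, 147 and 24.4 normalised reads in maternal BSp, against 237 and 167 in control. Every maternal BSp library was below both controls, as in 9.39% of 13524 genes whose mean was at least 1. The means were 90 ± 61.7 in maternal BSp and 202 ± 49.3 in control (SD, n = 3 and 2). This gave a log2 fold change of -1.47 (SE 0.69, unadjusted p = 0.0641, adjusted p = 0.457 by limma), and -0.72 without maternal BSp library 3. Tgfbi was the 1 member in the authors' deposited table of genes for control against BSp. That table holds 1739 genes, or 4.47% of the 38918 features, of which only 19906 had a mean above 0. It gives Tgfbi the authors' unadjusted p of 0.0493, with means of 90 in BSp and 202 in control. Tgfb1 and Tgfbi were not highest in the same library, since Tgfbi was highest in control library 1.

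**Figure D2:**
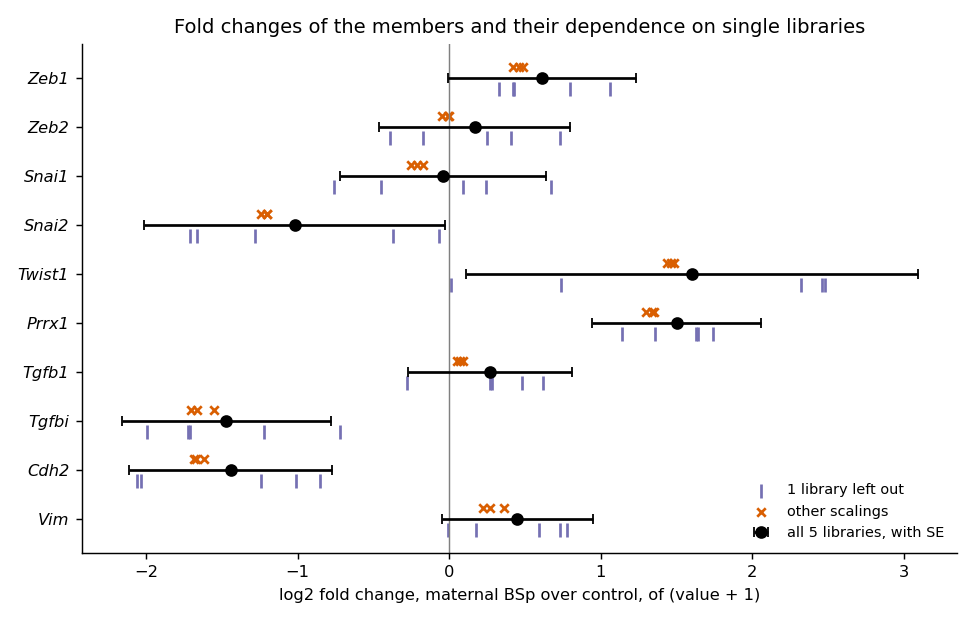
Log2 fold change of each member, maternal BSp over control, on the log2(value + 1) scale (horizontal axis): the black point with its SE is the value over all 5 libraries, bars below it leave out 1 library each, and crosses above it use other scalings. Prrx1 stayed between 1.14 and 1.74 and Tgfbi between -1.99 and -0.72 with 1 library left out, while Vim, Zeb2, Snai1 and Tgfb1 crossed 0.

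Across the members, the library with the highest value varied. Maternal BSp library 1 was highest for 3 members (Vim, Zeb1 and Snai1), library 2 for 3 (Zeb2, Tgfb1 and Prrx1) and library 3 for 1 (Twist1), against control library 1 for 2 (Snai2 and Tgfbi) and control library 2 for 1 (Cdh2). The lowest value was in maternal BSp library 3 for 3 members and in library 1 for 2, against control library 2 for 5. No library was the highest or the lowest for all members. Maternal BSp library 3 was lowest or second lowest for 8 of the 10, all but Twist1 and Prrx1. Over the 8 tested members, the median centred log2(value + 1) was -0.11, 0.56 and -0.52 in maternal BSp libraries 1, 2 and 3, against 0.37 and -0.35 in controls 1 and 2. Epithelial junction genes too were highest in maternal BSp library 2, at 0.68, and lowest in library 3, at -0.37. This pattern was thus not particular to the members. TGF-beta targets were highest in control library 1, at 0.42. Maternal BSp library 2 also had the largest upper-quartile scaling factor, 1.278.

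The genes whose pattern over the 5 libraries was most like each member's were sought among 2270 genes with a mean of at least 100, by the root mean square difference of centred log2(value + 1). The nearest to Tgfb1 was Ubqln1, at 0.07, and to Zeb2 were Pxdn and Son, both at 0.10. Vim was nearest to S100a11, at 0.13, and S100a11 was also the nearest to Snai1, at 0.29. Tgfbi was nearest to Mmp14, a membrane metalloprotease, at 0.21, then Hspg2, at 0.27. Cdh2 was nearest to Ly6e, at 0.22, and C1qa, a complement gene of macrophages, at 0.39, and Snai2 to Myo6, at 0.26, and Hr, at 0.28. For Vim, Tgfb1 and Snai1 the second in line were Zdhhc20, at 0.16, Mprip, at 0.15, and Efna1, at 0.30. Twist1 had the least similar neighbours, Ldhb at 0.68 and Fgfr1op2 at 0.75, both on chromosome 6 and both high in maternal BSp library 3. These are descriptions over 5 libraries.

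The other genes of the pathway were counted from lists, and no gene of them passed an adjusted p of 0.05. Of 9 tested members of the list of other transition transcription factors, 5 were higher and 4 lower in maternal BSp, with a median log2 fold change of 0.28, beside 0.21 for all genes. Tcf12, a partner of TWIST1, had 145, 147 and 100 normalised reads in maternal BSp, against 76 and 45.3 in control, with a log2 fold change of 1.12 (unadjusted p = 0.0181, adjusted p = 0.407 by limma). Tcf3 and Tcf4, of the same E-protein family, had log2 fold changes of 0.65 and 0.71.

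TGF-beta signalling was split by role. Of 10 tested ligands and latency genes, 3 were higher and 7 lower, with a median log2 fold change of -0.12. Mmp14, which releases latent TGF-beta, had 149, 301 and 44.7 normalised reads in maternal BSp, against 402 and 226 in control (log2 fold change -1.25), while Ltbp3 and Itgav had 0.68 and 0.41. Of 17 receptors and SMADs, 14 were higher and 3 lower, with a median of 0.36, but 10 were higher and 7 lower with upper-quartile scaling. Ski, a SMAD corepressor, Acvr1b and Tgfbr2, both receptors, had log2 fold changes of 0.61, 0.77 and 0.59, none with an unadjusted p below 0.05.

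Of 15 TGF-beta targets, 4 were higher and 11 lower in maternal BSp, with a median log2 fold change of -0.24, and 3 were higher and 12 lower with upper-quartile scaling. No target had an unadjusted p below 0.05, beside 8.01% of all genes higher and 3.14% lower. Junb, an AP-1 subunit, had 316, 415 and 361 normalised reads in maternal BSp, against 741 and 539 in control, a log2 fold change of -0.80 (unadjusted p = 0.0521, adjusted p = 0.444 by limma). Tagln, the actin-binding protein transgelin, had 88.1, 46 and 28.2 normalised reads in maternal BSp, against 211 and 62.3 in control. Its log2 fold change was -1.22, but -0.35 without control library 1 and -2.09 without control library 2.

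Of 17 tested mesenchymal adhesion and cytoskeleton genes, 10 were higher and 7 lower, with a median log2 fold change of 0.17, and 6 were higher and 11 lower with upper-quartile scaling. Those with an unadjusted p below 0.05 were 2 of the 17, both lower in maternal BSp, beside 3.14% of all genes lower and 8.01% higher. Ncam1, a neural cell adhesion molecule, had 6.93, 10.2 and 1.68 normalised reads in maternal BSp, against 25 and 20.7 in control (log2 fold change -1.93, unadjusted p = 0.0312, adjusted p = 0.426 by limma). Acta2, smooth muscle actin, had 26.4, 16.3 and 24 in maternal BSp, against 51 and 34.8 in control (log2 fold change -0.92). Tnc, tenascin C, had a log2 fold change of -1.05, and its groups overlapped.

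On the epithelial side, 13 of 19 junction genes were higher and 6 lower in maternal BSp, with a median log2 fold change of 0.22, and 9 were higher and 10 lower with upper-quartile scaling. Tjp1, the tight junction protein ZO-1, had 231, 186 and 121 normalised reads in maternal BSp, against 88 and 80.7 in control (log2 fold change 1.03, unadjusted p = 0.0256, adjusted p = 0.418 by limma). Ctnna1, alpha-catenin, had 731, 701 and 508 in maternal BSp, against 325 and 372 in control (log2 fold change 0.87). Pard6b, of the polarity complex, had a log2 fold change of 0.86. Cdh1 and Epcam themselves had -0.19 and 0.22, and the keratins Krt8 and Krt18 had -0.44 and 0.02, with adjusted p-values of 0.858, 0.839, 0.701 and 0.991 by limma. Scaling turned the direction of Cdh1 (0.02 with quantile normalisation), Epcam (-0.01 with upper-quartile scaling) and Krt18 (-0.21 with upper-quartile scaling).

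Of 16 tested epithelial guardian factors, which hold cells in the epithelial state, 9 were higher and 7 lower, with a median log2 fold change of 0.04, and 7 were higher and 9 lower with upper-quartile scaling. Grhl2, a grainyhead factor that activates Cdh1, had 55.1, 105 and 91.2 normalised reads in maternal BSp, against 30 and 26 in control (log2 fold change 1.5, SE 0.39, unadjusted p = 0.00454, adjusted p = 0.407 by limma). It was the 1 gene of the 16 with an unadjusted p below 0.05, beside 8.01% of all genes higher and 3.14% lower, and it stayed between 1.31 and 1.77 with 1 library left out. Ehf, an ETS factor, and Esrp2, an epithelial splicing regulator, had log2 fold changes of 0.85 and 0.83.

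**Figure D3:**
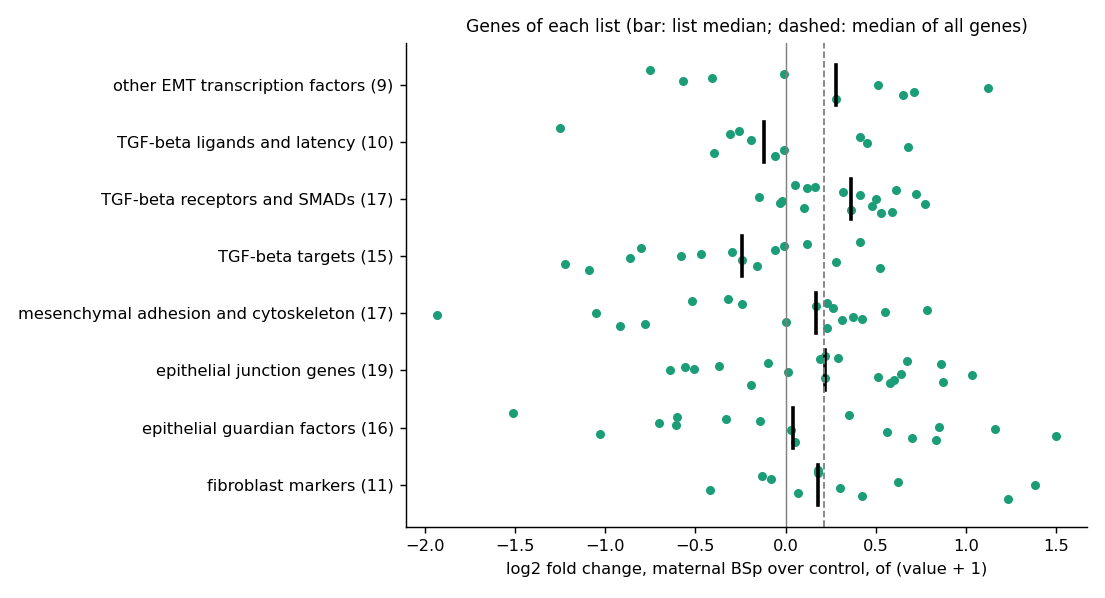
Log2 fold change, maternal BSp over control, on the log2(value + 1) scale, of each tested gene of 8 lists, with the number tested in brackets, a bar at the list median and a dashed line at 0.21, the median of all 9870 genes. List medians lay between -0.24 for the TGF-beta targets and 0.36 for the receptors and SMADs, and each list held genes on both sides of 0.

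Markers of other cell types were set beside the members. The 14 fibroblast markers summed to 867, 1154 and 375 normalised reads in maternal BSp, against 1152 and 401 in control, and Fap and Dpt were at 0 in control library 1. The members Zeb2 and Snai2 were highest in the same 2 libraries as this sum, maternal BSp library 2 and control library 1, which were also the top 2 for 6 of the 14 single markers. The part of fibroblasts in their values was not tested. Among 11 tested fibroblast markers 8 were higher and 3 lower, and 5 were higher and 6 lower with upper-quartile scaling. Pdgfra, a receptor for platelet-derived growth factor, was counted at an unadjusted p of 0.0137 with a log2 fold change of 1.23, while Dcn and Lum, both matrix proteoglycans, had 1.38 and 0.62 and overlapped between groups. Without control library 2 those became -0.05 and -0.69.

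The 10 measured macrophage and leukocyte markers summed to 536, 942 and 460 normalised reads in maternal BSp, against 447 and 410 in control, with Cd3e and Cd79a at 0 in control library 1 and Cd79a at 0 in control library 2. Tgfb1, also made by leukocytes, was highest in maternal BSp library 2, as was this sum, to which Lyz2 gave 629 in that library. Of the 10 markers, 5 were highest in maternal BSp library 2 and 5 in other libraries. Cd68, Mrc1 and Cd14 had log2 fold changes of 0.78, 0.95 and 0.81, none with an unadjusted p below 0.05. Cd14 was at 0.12 without control library 1, and Mrc1 at 0.45 without maternal BSp library 2. The 7 mural markers summed to 221, 345 and 129 in maternal BSp, against 308 and 168 in control, with Myh11 at 0 in control library 1. The 8 endothelial markers summed to 79.3, 55 and 67.3 in maternal BSp, against 82 and 50.4 in control. Of single markers, Rgs5, Cspg4 and Notch3 of the mural list had log2 fold changes of 0.32, -1.07 and -0.17, and Cdh5, Emcn and Pecam1 of the endothelial list 0.46, -0.25 and 0.03. The part of these cells in the members' values was not tested.

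The 8 mammary epithelial markers summed to 5666, 5823 and 5388 normalised reads in maternal BSp, against 6825 and 6958 in control, and none was at 0 in any library, which matches the labelled tissue. Of these, 2 were higher and 6 lower in maternal BSp, and 0 higher and 8 lower with upper-quartile scaling. Krt5 and Krt14 are keratins of basal and myoepithelial cells, which also express Acta2, Snai2 and Vim. Krt5 had 47.1, 65.8 and 2.89 normalised reads in maternal BSp, against 203 and 173 in control (log2 fold change -3.02, unadjusted p = 0.0215, adjusted p = 0.407 by limma). Krt14 had 504, 822 and 42.9 in maternal BSp, against 1294 and 766 in control, a log2 fold change of -1.92, and Krt7 had -1.05. Without maternal BSp library 3 these were -1.73 for Krt5, -0.63 for Krt14 and -0.67 for Krt7. Krt5 and Krt14 were lowest in maternal BSp library 3, the library with the least Snai2 and Tgfbi. Acta2 and Vim were not lowest there, at 24 and 119. Acta2 was lowest in maternal BSp library 2, at 16.3, and Vim in control library 2, at 114. The part of basal cells in those values was not tested.

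**Figure D4:**
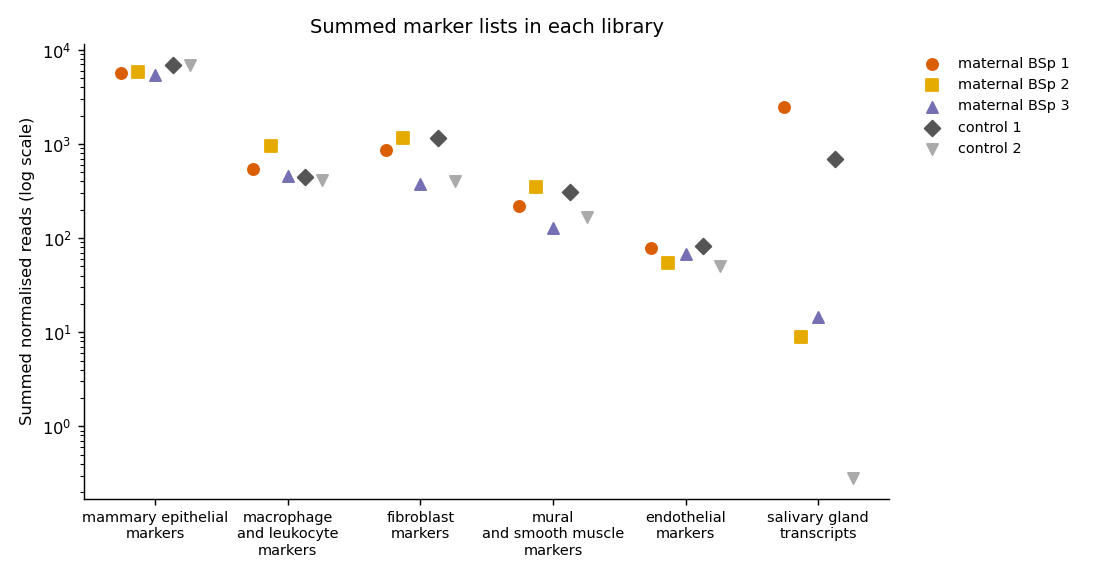
Summed normalised reads of 6 marker lists in each library (vertical log axis), with maternal BSp libraries left of controls within each list. Fibroblast and mural sums were highest in maternal BSp library 2 and control library 1, and salivary gland transcripts were high in maternal BSp library 1 (2451) and control library 1 (698).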

How the data were processed

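Per the labels' protocols, RNA of integrity number 7.0 or higher went into stranded mRNA libraries. FastQC, Trim Galore, cutadapt, STAR and DESeq, and the builds GRCm38 and mm10, are named in the submitters' processing notes; which tool counted reads, with which annotation and strand option, is not given in the sources used here. Without the strand option, overlapping genes cannot be told apart; 4 members overlap another annotated gene, whose highest value was 2.

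The deposited table holds, per the file headers, a normalised signal of reads per gene, which the authors scaled so that every library sums to 1106813. Whole reads could be recovered from it: 100% of values were a multiple of 1 read, to within 0.1 of a read. Intervals and detection limits cover counting error only. The authors' second deposited table gives group means and an unadjusted p-value for genes of a comparison that also held another group, not analysed here.

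Samples were grouped by their descriptions. Genes with a mean of at least 10 were tested with limma 3.58.1 (trend, two-sided) in R 4.3.3 on log2(value + 1), a scale that understates the change of low genes, with Benjamini-Hochberg adjustment over all genes tested and a threshold of 0.05. The steps were tested on simulated data. Alternatives were mean minimums of 1, 50 and none, pseudocounts of 0.5 and 5, other scalings, array weights, each library left out, replicate blocks, and edgeR 4.0.16 and DESeq2 1.42.0 on recovered reads. Positions and exon lengths are from GENCODE M21 on GRCm38. The members and lists were chosen with earlier results of these data known. Of the 12 lists, 170 of 172 entries were measured. The text names all members, the 3 genes of each list with the smallest p, Cdh1, Epcam, Krt8, Krt18, and 2 nearest genes for each member; others, such as the neighbours of Twist1, Twist2 and the salivary transcripts, were chosen after their values were seen. One gene under this rule is not reported here.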

Additional observations from a re-analysis of the deposited data

How the results depend on the processing

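No gene passed the adjusted threshold in limma with all 5 libraries, and 1101 genes had an unadjusted p below 0.05. The number of genes changed was 87 with DESeq2, 699 with array weights, 23 with a replicate block by the description number, and 0 to 1 with 1 library left out, where the 1 gene appeared without maternal BSp library 3; with a control left out, the other is assumed to vary like the maternal BSp libraries. It was 0 with edgeR, the block by the title number and every filter, pseudocount and scaling tried. The number of members changed was 1 (Cdh2) with array weights, and 0 in every other setting. Deviations of libraries that share a description number correlated at 0.09 and -0.09, and those that share a title number at 0.09 and 0.16. The numbers were thus not shown to pair the tumours. A maternal BSp library with no control of its number adds nothing to a blocked fold change. That is library 3 by description number and library 1 by title number. Blocked fold changes thus equal those with that library left out, such as -0.72 for Tgfbi and -0.01 for Vim. For fold changes the blocks are therefore not settings of their own. The cause of the differing counts of genes was not tested. Over 50 named genes and 19 settings, 869 of 923 log2 fold changes kept their direction and their side of the threshold, 4 passed it with array weights alone (Cdh2, Tcf12, Tjp1 and Pdgfra), and 50, of 15 genes, changed sign; for these the cause was not tested.

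With 1 library left out, log2 fold changes ran between -0.01 and 0.78 for Vim, -0.39 and 0.73 for Zeb2, -0.76 and 0.67 for Snai1, -0.28 and 0.62 for Tgfb1, -0.05 and 2.81 for Dcn, -0.69 and 1.94 for Lum, -0.09 and 1.02 for Cdh5, -0.25 and 0.31 for Pecam1, -2.11 and 0.19 for Cspg4, -0.36 and 1.23 for Rgs5, -0.58 and 0.04 for Notch3, and -0.33 and 0.26 for Krt18. With upper-quartile scaling they were -0.05 for Zeb2, -0.19 for Pecam1, -0.01 for Epcam and -0.21 for Krt18, with median-of-ratios scaling -0.00 for Zeb2, -0.14 for Pecam1 and -0.17 for Krt18, and with quantile normalisation -0.01 for Zeb2, -0.22 for Pecam1 and 0.02 for Cdh1. With edgeR they were -0.02 for Zeb2, -0.14 for Pecam1 and -0.06 for Krt18, and with DESeq2 -0.03 for Zeb2, -0.15 for Pecam1 and -0.07 for Krt18. With array weights they were 0.51 for Snai1, -0.22 for Tgfb1, 0.03 for Emcn and -0.20 for Krt18. With the replicate block by the description number they were 0.24 for Snai1, -0.01 for Pecam1, 0.19 for Cspg4, 0.04 for Notch3 and -0.33 for Krt18, and with the block by the title number -0.01 for Vim, -0.36 for Rgs5 and 0.03 for Notch3. With both libraries that hold salivary transcripts left out, an alternative chosen after seeing the data, they were 0.27 for Snai1, -0.05 for Rgs5, 0.07 for Notch3 and -0.06 for Krt18.

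Among the members, Zeb1, Prrx1 and Twist1 rest on the fewest control reads, 4 to 11 in each control library. Other named genes that kept their sign but moved by over 1.5 times were Mmp14 (-0.51 without maternal BSp library 3), Tnc (-0.57 without control library 2), Tcf4 (0.35 without maternal BSp library 1), Acvr1b (0.37 without maternal BSp library 2) and Itgav (0.15 without control library 2), among others.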

Other observations

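Maternal BSp library 3, the library with high Twist1, also held high values of other genes, chosen here after their values were seen and given with no test. Csn3, the milk protein kappa-casein, had 18.8, 2.94 and 1111 normalised reads in maternal BSp, against 4 and 3.11 in control. Elf5, a factor of the mammary alveolar lineage, had 18.4, 5.71 and 111 in maternal BSp, against 11 and 9.06 in control.

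Both nearest genes to Twist1 by pattern lie on chromosome 6, which Twist1 does not. Of 30 genes between 140 and 150 Mb of chromosome 6 (GRCm38), which takes in its far end, 25 were highest in maternal BSp library 3, beside 18.2% of all 9351 genes, and their median log2 ratio of that library to the next was 2.08, beside -0.62 for all genes. The window was drawn after the values were seen.

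The 4 B lymphocyte markers summed to 28.1, 0.341 and 2.01 normalised reads in maternal BSp, against 0 and 0.283 in control.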
